A study of Saccharomyces cerevisiae with 4 samples.

Results

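The PAU, DAN and TIR genes encode mannoproteins of the yeast cell wall. Of the 6256 gene probes on the array, 30 belonged to these families, with 24 PAU genes, 2 DAN genes and 4 TIR genes, each covered by 1 probe printed in 2 or 3 spots. They were found by the open reading frame name given for each probe, which was matched to genes whose current symbol or synonym is PAU, DAN or TIR followed only by digits. DAN2 and DAN3 are older names of PAU23 and PAU24 and were counted there. The array measured total RNA of log-phase *Saccharomyces cerevisiae* grown at 30° in YPD, a rich medium with 2% glucose, in a competitive hybridisation of a double mutant with the wild-type. Both strains derive from Y52, a MATa strain of the W303-1A background that carries RAD5 together with the alleles ura3-1, trp1-1, leu2-3, 122, can1-100 and ade2-1, and the mutant in addition carries esl1∆::KAN and esl2∆::NAT. ESL1 and ESL2 encode a related pair of proteins that share a PIN nuclease domain. The labels do not state how the cultures were aerated or whether the mutant replicates came from 1 clone or several.

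There were 3 biological replicates. On 3 arrays Cy5 marked the mutant and Cy3 the wild-type, and on the fourth array the RNA of replicate 3 was hybridised again with the dyes exchanged. All 4 arrays lay on 1 slide. The median raw intensity per channel was 1660 to 5186, from 92.4% to 98.0% of gene spots stood well above background, and none was saturated. For ESL1 the log2 ratio of mutant over wild-type was -4.77, -4.33 and -4.41 in replicates 1, 2 and 3, and for ESL2 it was -3.65, -3.99 and -3.65, so both deleted genes were low in the mutant on every array. The probes of all 6 a-cell genes examined (MFA1, MFA2, STE2, STE6, BAR1 and AGA2) stood well above background in both strains on all 4 arrays, and so did 2 of the 4 alpha-cell genes (STE3 and SAG1). Replicate 3 stood apart from the others. Over 6254 genes the log2 ratios of replicates 1 and 2 correlated at 0.68, and those of replicate 3 at 0.10 with replicate 1 and 0.21 with replicate 2, while its own array and dye swap correlated at 0.84.

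In yeast, these families are known for their response to oxygen and temperature. With oxygen present, heme-dependent repressors such as Rox1 and Mot3 keep DAN and TIR genes low, and without oxygen the sterol-sensing activator Upc2 turns them on, so that anaerobic cells replace much of their wall mannoprotein. TIR1, TIR2 and TIR4 are also induced by cold. Not all of them were low on these arrays. In the wild-type of replicate 1 the raw intensity was 19473 for TIR1 and 16248 for TIR2, above the channel median of 2783. It was 1698.5 for TIR3, 641 for DAN4, 381 for TIR4 and 81 for DAN1. Such heights are not strictly comparable between probes. The seripauperins encoded by PAU genes form one of the largest gene families of the yeast genome. Most copies lie next to telomeres and are nearly identical in sequence, so a probe for one copy may bind transcripts of others. The probe sequences were not analysed here, and the extent of such sharing was not tested. The 24 PAU probes are therefore described as one family, and a value given for a PAU gene is the value of its probe.

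None of the 30 genes passed the test of a difference between the strains. By limma with Benjamini-Hochberg adjustment over 6254 genes, 0 of the 30 passed an adjusted p of 0.05, where 7 of all genes did (0.112%). Without the adjustment, 0 of the 30 passed a p of 0.05, against 13.3% of all genes. None was at least 2-fold higher or lower in the mutant, and 0.4% of all genes lay past 2-fold in each direction. None reached 1.5-fold either, against 2.45% of all genes that were higher and 1.31% that were lower by that amount. For 29 of the 30 genes the probe stood well above background in both strains on all arrays, and the 95% interval of the mean log2 ratio lay within 2-fold in both directions for all 29. The outermost bounds were -0.76 for TIR3 and 0.50 for DAN4. These intervals use limma's standard error, in which the variance of each gene is drawn toward that of all genes. They are narrower than the replicates alone would give for a variable gene such as TIR3, and wider for a steady one such as TIR2. The count of 29 rests on that. Among all 5787 genes measured that well, 94.2% had an interval within 2-fold. RNA of whole cultures was measured, so a difference in some cells and a smaller one in every cell cannot be told apart.

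**Figure D1:**
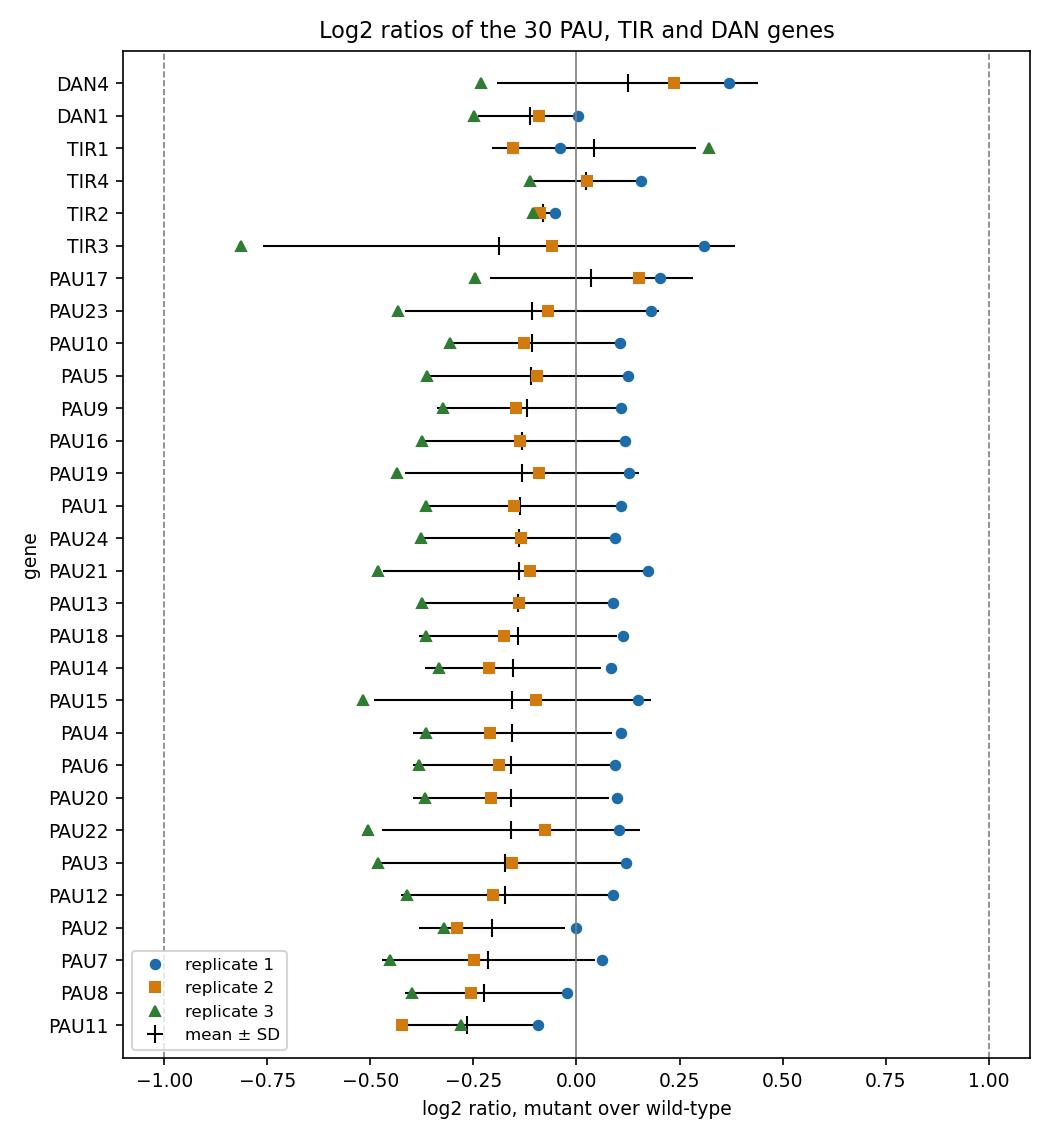
Log2 ratio of mutant over wild-type (horizontal axis) for each of the 30 genes (vertical axis), with a point for each of the 3 replicates and a bar for the mean ± SD. Dashed lines mark 2-fold. Every point lies inside them, the PAU genes form a narrow band, and TIR3 has the widest bar, with an SD of 0.57. The points of DAN1 rest on signals near background.

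Within a replicate, the ratios of the PAU probes lay closer together than those of all genes, and their median differed from replicate to replicate. The median log2 ratio of the 24 genes was 0.11 in replicate 1, -0.15 in replicate 2 and -0.37 in replicate 3. In replicate 1 the values ran from -0.09 to 0.20 with 21 of 24 above 0, in replicate 2 from -0.42 to 0.15 with 23 below 0, and in replicate 3 from -0.52 to -0.25 with all 24 below 0. The replicates thus disagreed on the sign. The SD among the 24 genes within a replicate was 0.063, 0.10 and 0.069, whereas the SD of their median over the 3 replicates was 0.24. Over all genes, the SD within a replicate was 0.34 to 0.41. Their median lay within 0.01 of 0, where the normalization of each array places it.

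Averaged over the replicates, 23 of the 24 PAU genes lay below 0, with a median of -0.15, against a median of -0.005 and 51.1% below 0 over all genes tested. These 23 are not separate observations, because the probes may bind the same transcripts. The 2 arrays of replicate 3 gave PAU medians of -0.34 and, with the dyes exchanged, -0.41, so the lower signal stayed with the mutant RNA when the dyes were turned. All 24 values were below 0 on each of these arrays. In replicate 3 the highest PAU value was -0.25, a ratio at or below which 19.4% of all genes lay. Without replicate 3, the PAU median was -0.02.

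**Figure D2:**
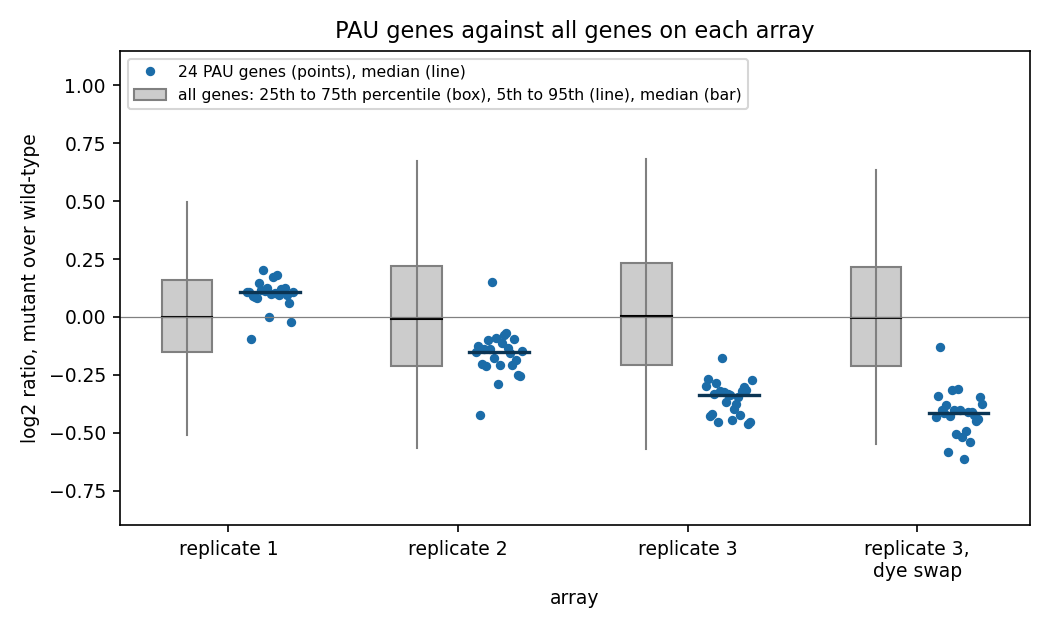
Log2 ratio of mutant over wild-type (vertical axis) of the 24 PAU genes (points, with a line at their median) beside the spread of all genes (grey) on each of the 4 arrays. The PAU median lies at 0.11 on the array of replicate 1, at -0.15 on that of replicate 2, and at -0.34 and -0.41 on the 2 arrays of replicate 3. The median of all genes lies near 0, where the normalization of each array places it.

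The mean log2 ratios of the PAU genes ran from -0.27 to 0.04. The lowest mean was that of PAU11 (YGL261C, chromosome VII), whose log2 ratios were -0.09, -0.42 and -0.28. All 3 of its replicates were below 0, and its mean was -0.27 ± 0.17 (SD, n = 3, 95% interval -0.55 to 0.02, limma adjusted p = 0.411). It was the lowest PAU value in replicates 1 and 2 but not in replicate 3, where its 2 arrays read -0.43 and -0.13. PAU8 (YAL068C, chromosome I) gave -0.02, -0.26 and -0.40, with a mean of -0.23 ± 0.19. PAU7 (YAR020C, also chromosome I) gave 0.06, -0.25 and -0.45, with a mean of -0.21 ± 0.26, so its replicates fell on both sides of 0.

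At the upper end, PAU17 (YLL025W, chromosome XII) gave 0.20, 0.15 and -0.25. It was the only PAU gene above 0 in replicate 2 and the only one with a mean above 0, at 0.04 ± 0.25 (limma adjusted p = 0.927). PAU23 (YLR037C, chromosome XII) gave 0.18, -0.07 and -0.43, and PAU10 (YDR542W, chromosome IV) gave 0.11, -0.13 and -0.31. Both averaged -0.11, with an SD of 0.31 for PAU23 and 0.21 for PAU10. PAU2 (YEL049W) gave -0.001, -0.29 and -0.32, a mean of -0.20 ± 0.18. The means of the other 17, PAU1, PAU3, PAU4, PAU5, PAU6, PAU9, PAU12, PAU13, PAU14, PAU15, PAU16, PAU18, PAU19, PAU20, PAU21, PAU22 and PAU24, lay between -0.11 and -0.17. Each of those 17 was above 0 in replicate 1 and below 0 in replicates 2 and 3.

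Of the 30 genes, 4 were lower in the mutant in all 3 replicates (PAU2, PAU8, PAU11 and TIR2), which is 13.3% of them, against 18.5% of all genes. None was higher in all 3, against 18.7% of all genes. With a replicate left out these counts ask for the same sign in fewer replicates. Without replicate 1, 26 of the 30 were lower in both others, against 26.3% of all genes, and without replicate 3, 3 of the 30 were higher in both others, against 36.7% of all genes. The PAU genes, whose probes may share transcripts, make up most of the 26. The replicate 1 value of PAU2 and of PAU8 lay within 0.03 of 0, so their sign there rests on a difference smaller than the usual spread of repeated spots, whose median SD over these probes was 0.032 to 0.035 on the 4 arrays.

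Position on the chromosome was compared because most copies are subtelomeric. In the current annotation, 19 of the 24 PAU genes had at most 6 protein-coding genes between them and the nearer chromosome end, and 5 lay farther in, with 14 for PAU7, 29 for PAU2, 38 for PAU17, 45 for PAU5 and 99 for PAU23. The 19 near the ends had mean log2 ratios from -0.27 to -0.11 with a median of -0.15. The 5 farther in ran from -0.21 to 0.04 with a median of -0.11, which overlaps the first range. In replicate 3 both sets had nearly the same median, -0.37 near the ends and -0.36 farther in.

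The levels of the 24 PAU probes differed between replicates by unequal amounts. Normalized log2 intensities of each strain were compared between replicates for the same probe. In the wild-type, the level in replicate 3 minus that in replicate 1 ran from -0.24 for PAU14 to 0.76 for PAU17, with 15 of the 24 genes higher in replicate 3. In the mutant the same difference ran from -0.66 for PAU14 to 0.31 for PAU17, with 21 lower. The 2 genes at either end were thus the same in both strains. Both strains are read from the same spots of an array, so a difference between arrays enters both levels. Such agreement is in part built in. PAU8 and PAU23 lay near PAU17, at 0.65 and 0.68 in the wild-type and at 0.28 and 0.07 in the mutant, and these 3 were the only PAU genes with a higher mutant level in replicate 3 than in replicate 1.

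The SD of that difference over the 24 genes was 0.27 in each strain. For the ratio, in which anything common to both channels of a spot drops out, the SD of the corresponding difference was 0.11. The ratio in replicate 3 was lower than in replicate 1 for all 24 genes, by a median of -0.47. From replicate 1 to replicate 2, 22 of the 24 genes were lower in the wild-type and all 24 in the mutant, with medians of -0.42 and -0.67. Each of these values compares 1 culture with 1 other culture and has no replicate of its own.

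**Figure D3:**
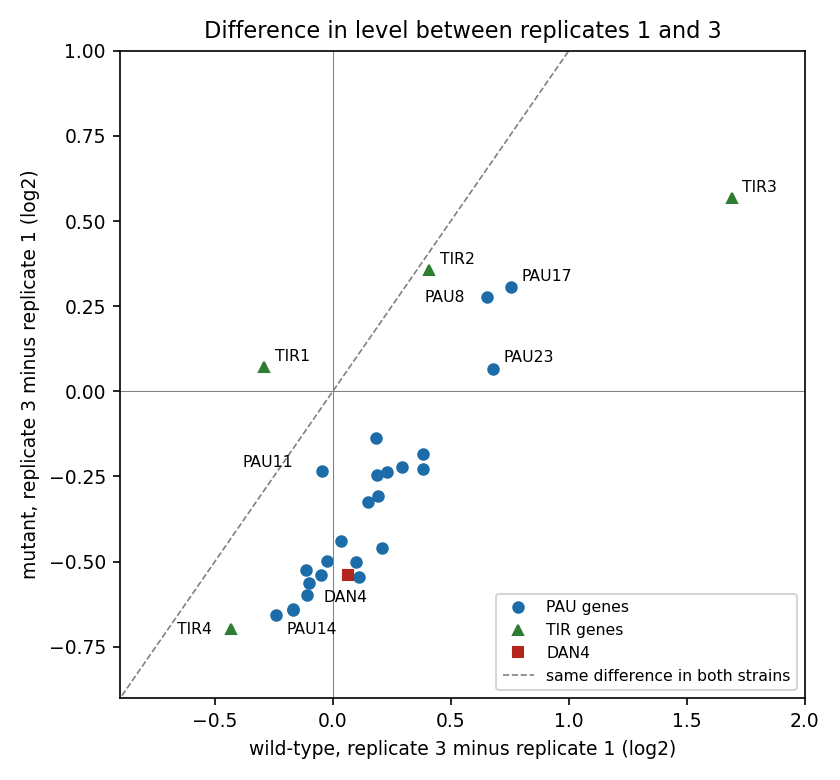
Normalized log2 intensity in replicate 3 minus that in replicate 1, in the wild-type (horizontal axis) and in the mutant (vertical axis), for the 29 genes well above background. The PAU genes spread along the diagonal from PAU14 to PAU17 but all lie below it, TIR3 lies farthest to the right at 1.69, and TIR1 is the only gene above the dashed line of equal differences.

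The DAN genes are delayed-anaerobic genes, switched on late after oxygen is removed, and were at the low end of detection or without a common direction. DAN1 and DAN4 are neighbours on chromosome X, with DAN4 (YJR151C) 10 genes and DAN1 (YJR150C) 11 genes from the end. The DAN1 probe was well above background on 2 of 4 arrays in the mutant and 1 of 4 in the wild-type. Its raw intensity was 92.2, 92.0, 89.8 and 84.0 in the mutant and 81.0, 89.5, 83.5 and 120 in the wild-type on the arrays of replicates 1, 2 and 3 and the dye swap. The local background of these spots was 18 to 54, so no fold is given for DAN1.

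DAN4, which encodes a mannoprotein of the same kind, was measured on every array. Its log2 ratio was 0.37, 0.24 and -0.23, the last from -0.09 and -0.37 on the 2 arrays of replicate 3. Replicates 1 and 2 were above 0 and replicate 3 below, and the mean of 0.12 ± 0.32 (SD, n = 3) was well within that spread (limma adjusted p = 0.751). Without replicate 3 the mean was 0.30, the highest of the 30 genes, and the limma p was 0.027 before adjustment and 0.118 after it. In that fit of 2 replicates 10.6% of all genes passed an adjusted p of 0.05 and 0 of the 30 did.

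The TIR genes, relatives of the cold-induced wall protein gene TIP1, did not share a direction. TIR1, TIR3 and TIR4 are known to be needed for growth without oxygen. TIR3 (YIL011W, chromosome IX) varied most of the 30 genes. Its log2 ratio was 0.31, -0.06 and -0.81, with -0.96 on the first array of replicate 3 and -0.67 on its dye swap. The replicates lay on both sides of 0, and the mean was -0.19 ± 0.57 (limma adjusted p = 0.753). The normalized log2 intensity of the wild-type was 10.98, 10.86 and 12.67 and that of the mutant 11.29, 10.80 and 11.85. The TIR3 level was thus higher in replicate 3 than in the other replicates in both strains. The excess over replicate 1 was 1.69 in the wild-type and 0.57 in the mutant. Both strains share each array, so a difference between arrays is part of both values.

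TIR1 (YER011W, chromosome V) ran the other way. Its log2 ratio was -0.04, -0.15 and 0.32, with 0.31 and 0.34 on the 2 arrays of replicate 3, which made it the only gene of the 30 above 0 in that replicate. The mean was 0.04 ± 0.25 (limma adjusted p = 0.912). Its wild-type intensity was 14.72, 14.71 and 14.42 and its mutant intensity 14.67, 14.56 and 14.75, so the ratio of replicate 3 came with a lower wild-type level.

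TIR2 (YOR010C) and TIR4 (YOR009W) are neighbours on chromosome XV and lie deep inside it, 176 and 175 genes from the end. TIR2 was the steadiest of the 30 genes. Its log2 ratio was -0.05, -0.09 and -0.11, all just below 0, with a mean of -0.08 ± 0.028 (95% interval -0.33 to 0.17, limma adjusted p = 0.753). TIR4 gave 0.16, 0.03 and -0.11, a mean of 0.02 ± 0.13 (limma adjusted p = 0.942). The level of TIR2 was higher in replicate 3 than in replicate 1 in both strains, by 0.41 in the wild-type and 0.36 in the mutant, and that of TIR4 was lower, by -0.43 and -0.70.

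**Figure D4:**
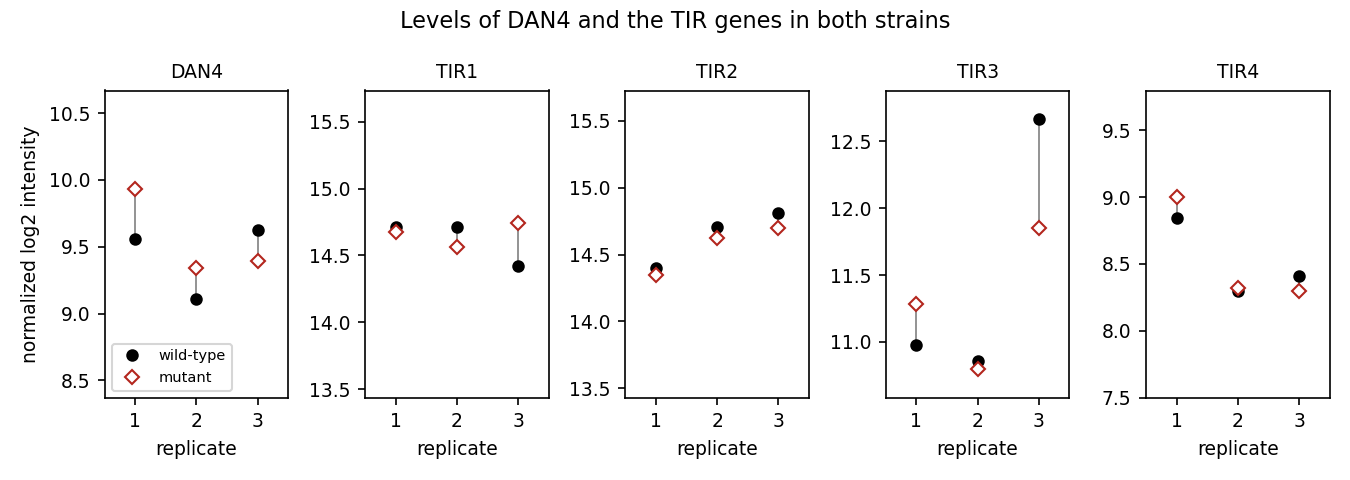
Normalized log2 intensity (vertical axis, the same span in each panel) of the wild-type (black circles) and the mutant (open diamonds) in the 3 replicates for DAN4, TIR1, TIR2, TIR3 and TIR4. The strains differ most for TIR3 in replicate 3, at 12.67 in the wild-type and 11.85 in the mutant, and hardly at all for TIR2. Heights are not comparable between panels.

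No regulator of these families passed the test. Of 9 genes listed, 0 passed the adjusted test or an unadjusted p of 0.05, against 0.112% and 13.3% of all genes. In so short a list a count of 0 says little. Their median log2 ratio was -0.04. UPC2 itself gave -0.05, -0.19 and -0.07, below 0 in all 3 replicates, with a mean of -0.10 ± 0.08. The highest means were 0.03 for TUP1, a general corepressor, and 0.02 for ECM22, the paralog of UPC2. The lowest were -0.27 ± 0.36 for ROX1 and -0.17 ± 0.24 for MOT3, the repressors of the DAN and TIR genes. Neither was low in every replicate, since ROX1 gave 0.03 in replicate 3 and MOT3 gave 0.11 in replicate 1.

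Other hypoxic and anaerobic genes showed no common direction. Of 19 genes, 0 passed the adjusted test and 1 an unadjusted p of 0.05, against 0.112% and 13.3% of all genes. In all 3 replicates 3 were higher and 2 lower, against 18.7% and 18.5% of all genes. The median was 0.04. CYC7, the hypoxic isoform of cytochrome c, gave 1.42, 0.62 and -0.94. Its mean of 0.36 ± 1.20 was the highest of the list, but its replicate 3 lay far on the other side of 0. ERG11, the lanosterol demethylase of ergosterol synthesis, gave 0.27, 0.26 and 0.16, a mean of 0.23 ± 0.06 (limma adjusted p = 0.423). At the lower end were ERG1, the squalene epoxidase, at -0.30 ± 0.13 and ERG5, the sterol desaturase, at -0.23 ± 0.28.

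Among 26 other genes of cell wall proteins, a chosen list of mixed kinds, the SD of the mean log2 ratios was 0.31. It was 0.083 among the PAU, DAN and TIR genes together and 0.28 over all genes. Most of that joint set are the 24 PAU genes, whose probes may bind the same transcripts. Its narrow spread may thus be in part built in, and the 2 sets are not strictly comparable. The SD was 0.055 among the PAU genes and 0.11 among the 4 TIR genes. Of the 26 listed wall protein genes, 0 passed the adjusted test and 3 an unadjusted p of 0.05, against 0.112% and 13.3% of all genes. Their median was -0.06 with a range of -0.51 to 0.82. FIT3 and FIT2, mannoproteins that retain iron-bearing siderophores in the wall, were highest. FIT3 gave 0.74, 0.73 and 0.98, a mean of 0.82 ± 0.14 (limma adjusted p = 0.131), and FIT2 averaged 0.72 ± 0.24 (limma adjusted p = 0.168). The lowest were CCW14, an inner-layer wall glycoprotein, at -0.51 ± 0.57, and TIP1, the gene after which the TIR genes are named. TIP1 gave -0.17, -0.51 and -0.62, a mean of -0.43 ± 0.23 (limma adjusted p = 0.283).

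Of 7 listed cold-responsive genes outside the TIR family, 0 passed the adjusted test, against 0.112% of all genes. An unadjusted limma p under 0.05 was reached by 3 of the 7 (TIP1, HSP12 and NSR1), against 13.3% of all genes. All 3 had a mean below 0. TPS1, which makes trehalose phosphate, averaged 0.17 ± 0.52 and OLE1, the fatty acid desaturase, 0.10 ± 0.38. NSR1, a nucleolin-like protein of the nucleolus, averaged -0.59 ± 0.54, and HSP12, a small membrane stress protein, -0.47 ± 0.22. The range of these genes was thus wider than that of the TIR genes.

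The COS genes, another repeated subtelomeric family whose products help sort membrane proteins, had a replicate 3 median closer to 0 than the PAU family. The median of 11 COS genes was 0.15 in replicate 1, -0.13 in replicate 2 and 0.03 in replicate 3, where the PAU median was -0.37. The 2 arrays of replicate 3 did not share a sign for the COS genes. Their median was -0.13 on the first array and 0.07 with the dyes exchanged, so the value of 0.03 joins unlike readings. The difference between the families was not tested. Among COS genes 0 passed the adjusted test or an unadjusted p of 0.05, against 0.112% and 13.3% of all genes. COS9 and COS6 were highest, at 0.25 ± 0.35 and 0.20 ± 0.17, and COS10 and COS5 lowest of those above background, at -0.41 ± 0.47 and -0.14 ± 0.24. The COS12 probe was not well above background on any array.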

How the data were processed

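The authors labelled 500 ng of hot-phenol RNA per sample, hybridised it to 2-colour Agilent yeast arrays and extracted the spots with Feature Extraction 10.1.1.1. The deposited intensities, a median signal and a local background for each spot and dye, carried no normalization. The deposited log10 ratio, background-subtracted and dye-normalized by that software, was the same in the authors' value table and served only as an alternative. The analysis ran in R 4.3.3 with limma 3.58.1. To obtain log2 ratios, normexp background correction (offset 50) was fitted over all spots, each array was normalized by loess, and 536 control spots and 291 to 486 outlier spots per array were left out. Spots of a probe were averaged, the dye swap was turned, and both arrays of replicate 3 were averaged. Ratios of 3 replicates were tested against 0 by lmFit and eBayes (two-sided, Benjamini-Hochberg over 6254 genes, 5.27 total degrees of freedom, tested on simulated data). An exact sign-flip test of 3 replicates cannot go below p = 0.25. Levels per strain come from the separate channels after loess and Aquantile normalization. The number of arrays limits the precision.

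Of 6256 probes, 5756 matched a locus tag of the reference table (assembly R64), which gave the symbols and the gene order. The array design is older, so no coordinates are given. Every member is named. Values per replicate are given for all DAN and TIR genes and for the 3 highest and 3 lowest PAU genes above background, and from each gene list the 2 highest and 2 lowest means above background are given. PAU2 and UPC2 were added after their values were seen. The members and lists were chosen with earlier results of these data known. Alternatives varied background, normalization, the ratio used, filters, spot summary, dye swap, replicates, fold threshold and the counting of PAU copies. Probe specificity, protein identity and promoter motifs were not analysed here.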

Additional observations from a re-analysis of the deposited data

How the results depend on the processing

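No member was called by limma under any of the alternatives run. The median log2 ratio of the 30 genes, -0.14, stayed below 0 throughout. A dye term over 4 arrays moved it to -0.27, as it did the PAU median, and leaving out a replicate moved it between -0.27 (without replicate 1) and -0.02 (without replicate 3). The fit with a dye term takes the arrays of replicate 3 as separate. It gives the dye swap as much weight as the other 3 arrays together, so its shift is not the effect of dye alone. The count lower in all replicates was 4. It was 3 with the software's own ratio and 1 with the PAU probes counted as 1 family, which holds fewer features by construction, and ran from 4 to 26 with a replicate left out, the 26 without replicate 1. The count higher in all replicates was 0, became 1 under median centring, and ran from 0 to 3 with a replicate left out, the 3 without replicate 3. With a replicate left out these counts can only stay or grow.

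Of 190 values under alternatives, which cover the 12 genes described replicate by replicate under the rule, 179 kept their sign and side of the threshold. The 11 others changed sign without being called, and the cause was not tested. TIR4 became -0.0016 with a normexp offset of 0, -0.074 under median centring and -0.056 with a dye term over 4 arrays. The dye term also turned DAN4 to -0.10 and PAU17 to -0.13. That fit weights the dye swap array as much as the other 3 together, and on it DAN4 read -0.37 and PAU17 -0.31. With a replicate left out, TIR4 ran from -0.043 to 0.091, PAU17 from -0.048 to 0.18, PAU23 from -0.25 to 0.056, TIR1 from -0.097 to 0.14 and TIR3 from -0.44 to 0.13. Without replicate 3, another 5 members (PAU5, PAU15, PAU19, PAU21 and PAU22) also changed sign, to between 0.013 and 0.030.

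The 2 strains of a replicate share an array, and the ratio within the array keeps this pairing. With the channels taken apart and no replicate block, the members' median was -0.14, and 0 of 30 genes and 5 of all genes were called, against 7. All genes called numbered 1 with the software's own ratio, 4 with the dye swap alone for replicate 3, 11 under median centring and 662 without replicate 3, but 2 without replicate 1 or replicate 2. The alternative restricted to probes that match 1 place in the genome was not run, because it needs probe sequences. Of the 30 genes, DAN1 was the only one not well above background on all arrays.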
